A study of Mus musculus with 24 samples.

Results

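The genes described here encode the proteins of the cytosolic ribosome. They were taken as every gene whose scanner name is Rpl or Rps followed by a number (with or without a, l or x), by a, or by p0, p1 or p2. The rule found 81 genes among 37008 gene names, 49 of the large subunit and 32 of the small subunit, measured by 176 of 56605 probes. It uses names only and no measured value. It leaves out pseudogenes, mitochondrial ribosomal proteins and a few paralogs whose names have another form, such as Rps3a1, Rpl36al, Rpl22l1 and Rpl7l1.

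The samples were livers and bone marrows of male mice of the Erfe-/- genotype, which lack erythroferrone, the hormone that erythroblasts release under erythropoietin to lower hepcidin. All groups carry this genotype, so nothing here compares it with wild type, and the labels give no strain or age. Blood was taken by retro-orbital puncture, and tissue was collected 0, 24 and 48 h later, with 4 mice at each time and the 0 h mice labelled as controls. This gave 24 single-colour arrays, 4 for each tissue and time, and the labels do not say whether a liver and a marrow of the same number came from the same mouse.

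A ribosome holds 1 copy of nearly every ribosomal protein, and cells make these proteins in matched amounts. Their mRNAs are among the most abundant in the cell. Most begin with a short stretch of pyrimidines, the 5′ terminal oligopyrimidine (TOP) motif, through which mTOR signalling, by way of the protein LARP1, switches their translation on and off together. Transcription of these genes is high in growing cells and follows MYC. Red cell precursors depend heavily on ribosome supply: loss of 1 copy of one of several ribosomal protein genes causes Diamond-Blackfan anaemia, a failure of red cell production. An array of total RNA measures the amount of mRNA and does not see translational control.

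Start sites from RefSeq (assembly GRCm38.p6) were at hand for 60 of the 81 genes, and 7 are shown because their genes carry the results below: Rps18, the brightest in marrow, the 3 with the largest differences towards marrow (Rps3, Rps15a and Rps7), Rps2, whose marrow signal was furthest above 0 h at 48 h, and Rps27l and Rpl10, which were lower in marrow. Each sequence runs from 40 bases before the annotated start to 20 bases from it, 5′ to 3′ on the gene's strand. Capitals mark the unbroken run of C and T that contains the start base. A sequence without capitals has a purine at the annotated start.
Rps18: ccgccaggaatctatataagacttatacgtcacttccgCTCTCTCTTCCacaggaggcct
Rps3: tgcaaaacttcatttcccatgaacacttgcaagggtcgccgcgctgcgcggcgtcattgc
Rps15a: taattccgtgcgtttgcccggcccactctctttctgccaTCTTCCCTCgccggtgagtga
Rps7: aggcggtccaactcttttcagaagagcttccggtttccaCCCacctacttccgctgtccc
Rps2: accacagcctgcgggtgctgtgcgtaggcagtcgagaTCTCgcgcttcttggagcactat
Rps27l: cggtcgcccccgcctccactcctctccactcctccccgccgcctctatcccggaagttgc
Rpl10: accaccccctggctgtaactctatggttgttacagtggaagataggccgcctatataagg
These windows lie at chr17:33955646-33955705 (minus strand), chr7:99483690-99483749 (minus), chr7:118116128-118116187 (minus), chr12:28635934-28635993 (minus), chr17:24720023-24720082 (plus), chr9:66946046-66946105 (plus) and chrX:74270776-74270835 (plus), in that order. Rps18 and Rps15a have runs of 11 and 9 pyrimidines over the start, whereas the annotated starts of Rps3, Rps27l and Rpl10 are a G.

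Across the 60 members, 12 (20%) had a C at the annotated start followed by 4 more pyrimidines, against 2.49% of all 27025 promoters. Of the first 10 transcribed bases, a median of 60% were pyrimidines in the members and 50% over all promoters. In the whole 300-base entries, from 250 before to 50 after the start, the letters CCGGAAG, the core bound by ETS factors such as GABPA, stood on either strand in 24 members (40%) and in 9.12% of all promoters. The letters ATGGCG, the core of the YY1 site, stood in 17 members (28.3%) against 9.24%, and CTTTCC, a pyrimidine stretch, in 29 (48.3%) against 26.3%. Read on the other strand CTTTCC is GGAAAG, which shares the letters GGAA with CCGGAAG. Both strands were searched for each motif. A match is a description of the letters, not a bound site, and an annotated start can lie a few bases off the one in use.

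Signals are given as log2 of the intensity over the array's own 75th percentile, so that 0 is the 75th percentile and 1 unit is a doubling. The 75th percentile was 361 to 473 on liver arrays and 715 to 955 on marrow arrays, and no spot was saturated. Defining markers matched the labelled tissues: Alb, Apoa1, Ttr, Cps1, Ahsg and Fgb were well above background on 12 of 12 liver arrays and on 1 to 9 of 12 marrow arrays each, and Gata1, Klf1, Hbb-b1, Elane, Mpo, Cd79a and S100a8 on 12 of 12 marrow arrays. On liver arrays Gata1 and Cd79a were above background on 2 of 12, Mpo on 11, and Klf1, Hbb-b1, Elane and S100a8 on 12. Each of these marrow markers had a higher mean signal in marrow than in liver. One marrow array, replicate 2 at 24 h, carried liver transcripts. The median of 15 hepatocyte markers there was 12.8% of its mean liver level, against at most 0.0306% on the other 11 marrow arrays. Values without it are given below for the members' median, for counts of members, for gene lists and for named genes at 24 h in marrow.

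Of the 81 genes, 80 were tested in marrow and 77 in liver, where a probe had to be well above background on every array of at least 1 group. Rpl10l, an intronless copy of Rpl10 known from testis, was above background on 1 of 12 marrow arrays and on 0 of 12 liver arrays. Rpl3l, a muscle-restricted relative of Rpl3, was above background on 9 of 12 marrow arrays and 0 of 12 liver arrays. Its signal in unbled marrow, above background on 3 of 4 arrays, was at least 1.09-fold higher than in unbled liver. This bound sets the marrow mean against the lowest signal well above background on each liver array. Rpl37, which is no paralog of this kind, was read by a single probe. That probe was above background on 9 of 12 marrow arrays and 1 of 12 liver arrays, and Rpl37 was not tested in liver. Whether the probe reads the Rpl37 mRNA well was not tested. Rpl39l, a relative of Rpl39 known from male germ cells, was above background on 12 of 12 marrow arrays, with a mean of -1.21 ± 0.35 (SD, n = 4) at 0 h. In liver it was above background on 2 of 12 arrays.

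Most members had far brighter probes. At 0 h the tested members had a median signal of 7.29 in marrow and 6.82 in liver. The strongest signals were those of Rps18, Rps20, Rpl41, Rps10 and Rplp1 in marrow and of Rpl10, Rplp1, Rps18, Rpl37a and Rps20 in liver. The weakest beside Rpl10l, Rpl3l, Rpl37 and Rpl39l belonged to Rps4l in both tissues. A probe's brightness depends on its sequence as well as on the mRNA, so these are not an order of mRNA levels.

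Before bleeding, ribosomal protein mRNAs were higher in marrow than in liver for most members. Relative to each array's 75th percentile, 63 of 77 members were higher in unbled marrow and 3 were lower (limma, Benjamini-Hochberg adjusted p under 0.05 over 18242 genes), while 37.0% of all genes were called higher and 43.5% lower. The median member difference was 0.50 (1.42-fold), and the median over all genes was -0.12. Large and small subunits gave alike counts, 35 of 45 and 28 of 32 called higher, with medians of 0.49 and 0.54. These sizes rest on how the tissues are scaled to each other: quantile normalization of all arrays together gave a median of 1.12 with 75 members called higher, and scaling to the 95th percentile, added after the data were seen, gave 0.33 with 60 called higher. The all-gene medians under these scalings were -0.03 and -0.29.

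The members with the largest differences towards marrow were Rps3, Rps15a and Rps7, all proteins of the small subunit. Rps15a read 7.12, 6.66, 7.01 and 6.96 on the 4 unbled marrow arrays and 6.04, 5.85, 5.87 and 5.81 on the 4 unbled liver arrays. The groups did not overlap, and the difference was 1.04 ± 0.09 (SE; limma adjusted p = 7.65e-10), or 2.06-fold. Rps7 read 6.49, 6.09, 6.33 and 6.20 in marrow and 5.36, 5.30, 5.36 and 5.32 in liver. Its difference was 0.94 ± 0.10 (SE; limma adjusted p = 1.57e-08). Rps3, which also takes part in DNA repair, averaged, on the 1 probe compared between the tissues, 7.15 ± 0.27 (SD, n = 4) in marrow and 6.09 ± 0.05 (SD, n = 4) in liver, 2.10-fold apart.

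**Figure D1:**
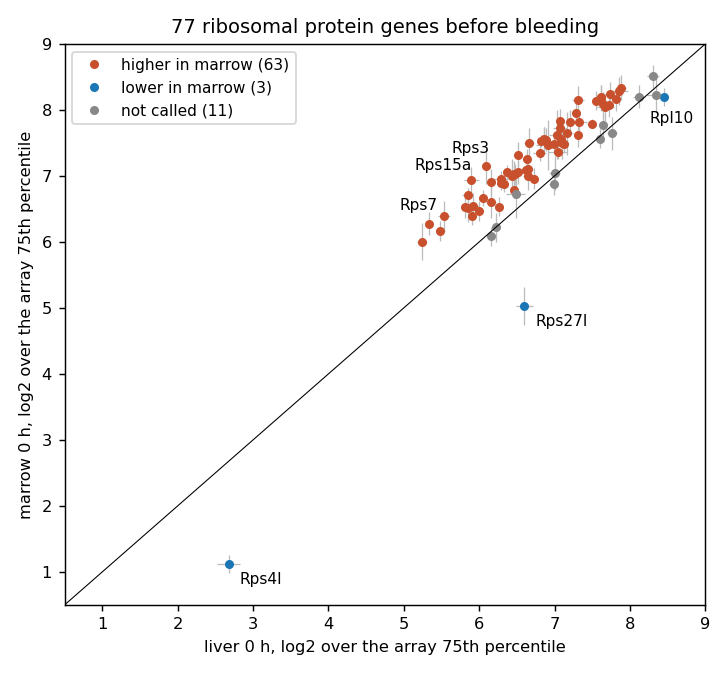
Mean signal of each of 77 ribosomal protein genes on 4 unbled marrow arrays (vertical) against 4 unbled liver arrays (horizontal), both as log2 over the array's 75th percentile, with bars of 1 SD; colours give the limma call and the line marks equal values. Most genes lie above the line, with a median distance of 0.50, while Rps27l and Rps4l lie far below it at 5.02 against 6.60 and 1.11 against 2.68.

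A pair of paralogs went the other way, together with Rpl10. Rps27l, a close relative of Rps27 known as a target of p53, read 5.34, 4.69, 5.17 and 4.90 in unbled marrow and 6.67, 6.70, 6.44 and 6.59 in unbled liver. The lowest liver array was above the highest marrow array, and the difference of -1.58 ± 0.13 (SE; limma adjusted p = 4.43e-10) put marrow at 0.335 of the liver level. Rps4l, a copy of the X-linked Rps4x on chromosome 6, read 1.27, 1.18, 1.05 and 0.96 in marrow and 2.81, 2.48, 2.79 and 2.63 in liver, a difference of -1.56 ± 0.21 (SE; limma adjusted p = 4.66e-07). Both were lower in marrow under every alternative run, with differences from -1.75 to -1.03 for Rps27l and from -1.90 to -1.39 for Rps4l. The related genes Rps27 and Rps4x were called higher in marrow, by 0.60 ± 0.09 (SE) and 0.62 ± 0.07 (SE). A dimmer Rps27l probe was also lower in marrow, with means over all 12 arrays of 4.26 in marrow and 5.33 in liver.

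Rpl10, an X-linked protein that joins the large subunit late, read 8.34, 8.01, 8.25 and 8.20 in marrow and 8.48, 8.44, 8.47 and 8.45 in liver. All marrow arrays were below all liver arrays, by -0.26 ± 0.08 (SE; limma adjusted p = 0.00546). This direction turned under quantile normalization of all arrays together, which gave 0.62, and the call was lost with the replicate block (limma adjusted p = 0.0743).

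After bleeding, no ribosomal protein gene passed the test in marrow. At 24 h, 0 of 80 members were called by limma with Benjamini-Hochberg adjustment over 21399 genes, against 1.01% of all genes, and 1 had an unadjusted p under 0.05, against 12.6%. At 48 h, 0 of 80 were called against 1.23% of all genes, and 6 (7.5%) had an unadjusted p under 0.05 against 16.0%. Between 24 and 48 h, 0 were called against 0.00467% of all genes, with 0 at an unadjusted p under 0.05 against 7.68%. No member's 24 h arrays lay wholly above or wholly below its 0 h arrays, against 4.15% and 4.13% of all genes. With replicate 2 at 24 h left out, 6 of 80 lay wholly above, against 8.76% of all genes, and 0 below, against 5.14%. The smallest adjusted p of any member was 0.301 at 24 h and 0.157 at 48 h. No member was called under any of the 26 alternatives run for each of these comparisons, which include other models and other ways of normalizing.

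The signs were nevertheless one-sided. At 24 h, 72 of 80 members had a positive mean difference from 0 h, with a median of 0.07 and a range from -0.21 to 0.37, while the median over all genes was -0.02. At 48 h, 77 of 80 were positive with a median of 0.13, a range from -0.41 to 0.37 and an all-gene median of 0.00. The members are not independent of each other in such a count, as the arrays show.

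In marrow the members moved together from array to array, by as much within a time as between times. Taking each member's difference from its 0 h mean, the median over the members on the 4 arrays at 0 h was 0.18, -0.22, 0.06 and -0.03. It was 0.22, -0.07, 0.04 and 0.12 at 24 h. It was 0.04, 0.21, 0.31 and -0.01 at 48 h. The 3 groups overlap: the highest 0 h array lay above 2 of the 48 h arrays. On replicate 2 at 0 h only 3 of 80 members were above their 0 h mean, and on replicate 1 at 24 h all 80 were.

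With the group means removed, the mean correlation between pairs of members over the 12 marrow arrays was 0.83, against 0.51 between pairs of 338 other genes of the same signal range and 0.06 between pairs of all tested genes. For 74 of 80 members the correlation with the members' median was above 0.8. Rpl39l (0.16), Rpl37 (0.29), Rps4l (0.29) and Rpl3l (0.62) followed it least, and these have the weakest probes. In liver the mean correlation between members was 0.37, against 0.18 for other genes of the same signal range and 0.03 for all genes, and Rpl23 (-0.33) and Rpl21 (-0.23) were among the members that followed the median least. All these correlations are over arrays that share a scaling step, and they are descriptions.

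Other bright genes shifted on the same marrow arrays. The 338 genes that are no members but whose mean signal lay between the 10th and 90th percentile of the members had medians of 0.17, -0.20, 0.04 and -0.01 on the 0 h arrays. On the 48 h arrays theirs were 0.06, 0.21, 0.22 and -0.01. Over the 12 marrow arrays, with group means removed, their shift correlated with that of the members at 0.98. The members' shift correlated with log2 of the array's 75th percentile, the value used for scaling, at -0.73, and at -0.65 in liver. That value is subtracted from every signal, so a negative correlation is partly built in and cannot show what scaling did. The part of scaling in the members' shift was not tested beyond the alternatives that follow.

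**Figure D2:**
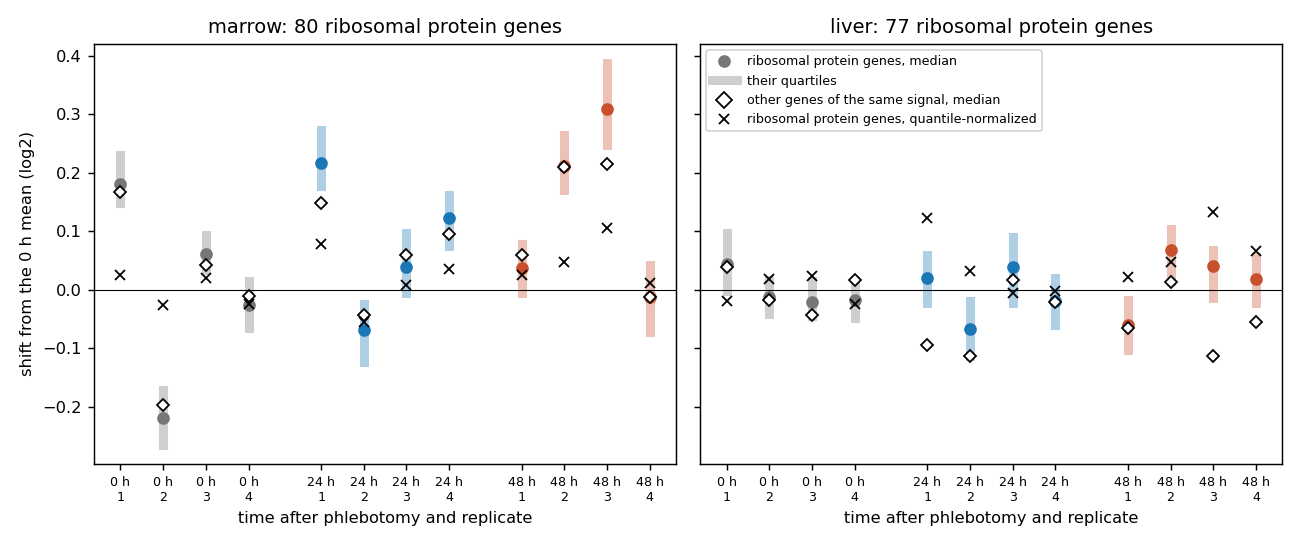
Shift of the ribosomal protein genes from their 0 h mean (log2, vertical) on each of 12 marrow and 12 liver arrays, ordered by time and replicate: filled circles are the median over members, bars their quartiles, diamonds the median of other genes in the same signal range, and crosses the members after quantile normalization. The marrow circles spread from -0.22 to 0.31 with the diamonds beside them, while the crosses stay between -0.05 and 0.10.

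How the arrays were scaled set the size of the marrow difference. After quantile normalization within marrow, 48 of 80 members were positive at 24 h with a median of 0.01, and 64 of 80 at 48 h with a median of 0.05. The authors' own processed values gave medians of 0.02 and 0.05. Scaling to the 95th percentile, added after the shifts were seen, gave -0.02 with 31 of 80 positive and 0.01 with 47 of 80 positive, and moved the median of all genes to -0.12 at both times. Under quantile normalization the mean correlation between members was 0.27, with 0.05 for the other bright genes, and the SD of the members' median within a time was 0.04, against 0.15 before. Scaling to the median gave 0.13 at 24 h and 0.14 at 48 h.

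Single arrays also carried part of it. Without replicate 2 at 0 h, the median member difference was -0.01 at 24 h with 36 of 80 positive, and 0.06 at 48 h. Without replicate 1 at 0 h it was 0.15 at 24 h and 0.21 at 48 h. Without replicate 2 at 24 h, the array with liver transcripts, the 24 h median was 0.12 with 77 of 80 positive, and without replicate 1 at 24 h it was 0.02. Without replicate 3 at 48 h the 48 h median was 0.08. Within the 3 slides, each of which held both tissues and all times, the marrow medians were 0.24, -0.12 and 0.11 at 24 h and 0.06, 0.20 and 0.02 at 48 h, from 1 or 2 arrays on a side.

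**Figure D3:**
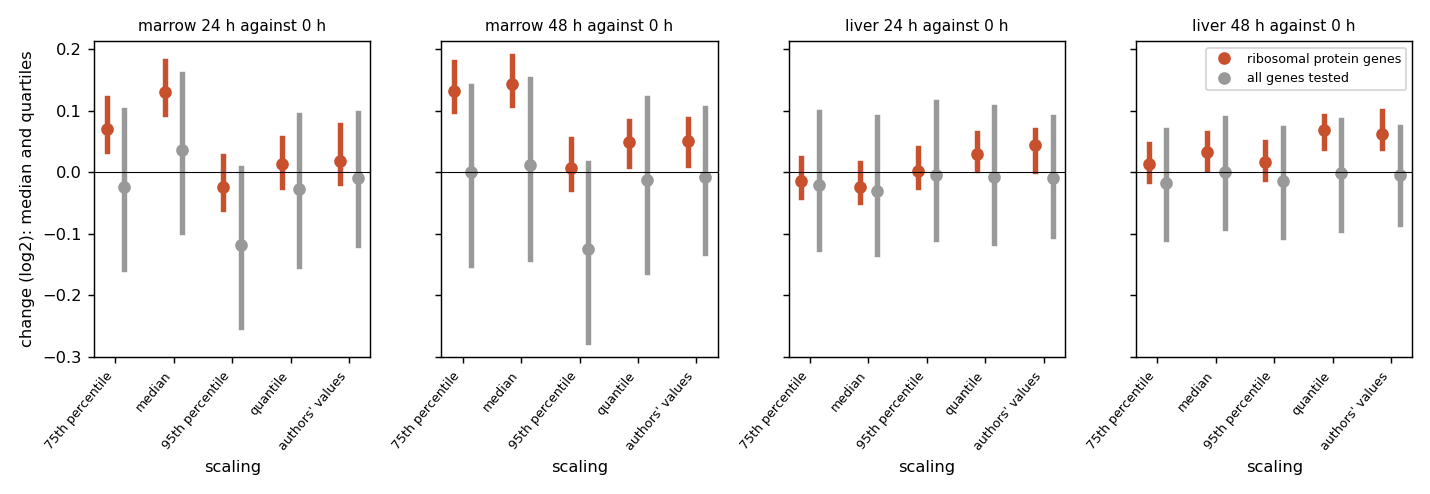
Median change after bleeding with quartiles (log2, vertical) for the ribosomal protein genes and for all genes tested, in marrow and liver at 24 and 48 h against 0 h, under 5 ways of scaling the arrays. In marrow at 48 h the members' median runs from 0.14 with median scaling to 0.01 with the 95th percentile, and in liver every median of the members lies between -0.02 and 0.07.

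The member with the smallest p in marrow at both times was Rps2, a small-subunit protein near the mRNA entrance. It read 6.40, 5.93, 6.38 and 6.18 at 0 h, 6.55, 6.39, 6.54 and 6.65 at 24 h, and 6.52, 6.65, 6.76 and 6.42 at 48 h. All 48 h arrays were above all 0 h arrays, by a narrow margin. The mean difference was 0.31 ± 0.12 (SE) at 24 h and 0.37 ± 0.12 (SE) at 48 h, or 1.24-fold and 1.29-fold, with limma adjusted p of 0.301 and 0.157. The exact 2-sided permutation p for this gene alone was 0.0571 at 24 h and 0.0286 at 48 h, and 0.0286 is the smallest that 4 against 4 arrays allow. The gene was named for the size of its change, so that p is no independent evidence. Without replicate 2 at 24 h, the 24 h difference was 0.36 ± 0.13 (SE; limma adjusted p = 0.272).

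Both bright Rps2 probes gave nearly the same value, 0.37 and 0.40 at 48 h. The scanner file places one at chr17:24857583-24857642 and the other at chr17:42864841-42864900 of mm9, far apart on the chromosome. The Rps2 difference at 48 h was 0.27 after quantile normalization, 0.24 with the 95th percentile and 0.31 in the authors' values, with limma adjusted p from 0.0612 to 0.390 over all alternatives. In liver Rps2 differed from 0 h by -0.03 ± 0.06 (SE) at 24 h and -0.01 ± 0.06 (SE) at 48 h. The marrow difference exceeded that of liver by 0.38 ± 0.13 (SE) at 48 h, which was not called (limma adjusted p = 0.204).

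Setting each member against the median of the members on its own array removes any shift that all members share. On that scale Rps2 averaged -1.04 and was at most -0.96 on the 0 h marrow arrays, between -0.93 and -0.70 at 24 h, and between -0.86 and -0.74 at 48 h. The 0 h arrays were thus apart from the later ones, with mean differences of 0.24 and 0.23. Rps2 was the 1 member of 80 whose 24 h arrays lay wholly above 0 h on this scale, against 1.97% of all genes, and at 48 h there were 3, Rps2, Rpsa and Rpl8, against 1.77%. Rps16, Rps27 and Rps29 were among the 4 members that lay wholly below 0 h at 24 h, against 4.48% of all genes, and Rps15a and Rps29 among the 3 at 48 h, against 7.45%. Apart from Rps2 and Rps27 (-0.13 at 24 h), these differences were at most 0.10 in size, and for 73 of 80 members the 48 h mean was within 0.1 of its 0 h place. Rps2 was still, with replicate 2 at 24 h left out, the 1 member wholly above 0 h at that time (2.12% of all genes), and 6 lay wholly below (7.24%). In liver, 3 of 77 members lay wholly above 0 h on this scale at 24 h and 12 at 48 h, with 0 below. Rps2 was not among them, and no share over all genes is at hand for liver on this scale. Such values show unequal change among members, not which member changed.

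Rplp0 is the scaffold of the ribosomal stalk, which recruits the elongation factors, and Rplp1 and Rplp2 form dimers on it. Rplp0 read 7.62, 7.41, 7.58 and 7.52 in marrow at 0 h and 7.67, 7.83, 7.84 and 7.74 at 48 h. The groups did not overlap, as for Rps2 and Rpl29 and no other member (3 of 80, 3.75%, against 8.0% of all genes); no member lay wholly below, against 4.69%. The difference was 0.24 ± 0.08 (SE; limma adjusted p = 0.192), and 0.15 under quantile normalization. Rplp1 differed by 0.13 ± 0.14 (SE) on its brightest probe and by 0.28 ± 0.14 (SE) and 0.27 ± 0.14 (SE) on its other probes, which were above background on every array as well. Rplp2 differed by 0.07 ± 0.10 (SE). None of these was called.

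Rpl24, which forms a bridge between the subunits, read 6.24, 5.95, 6.18 and 5.97 at 0 h and 6.17, 6.40, 6.52 and 6.22 at 48 h, so that the groups overlapped. Its difference was 0.24 ± 0.11 (SE; limma adjusted p = 0.296). Rpl29, Rpl3 and Rpl7, the remaining members with an unadjusted p under 0.05 at 48 h, differed by 0.20, 0.21 and 0.21. Rpsa, which is also known as the laminin receptor, differed by 0.23 ± 0.11 (SE). Of the 6 members with an unadjusted p under 0.05 at 48 h, 5 were among the 48 of the large subunit. The other 1 was among the 32 of the small subunit, and the share over all genes was 16.0%. The median difference was 0.16 for the large and 0.13 for the small subunit at 48 h, and 0.09 and 0.05 at 24 h.

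**Figure D4:**
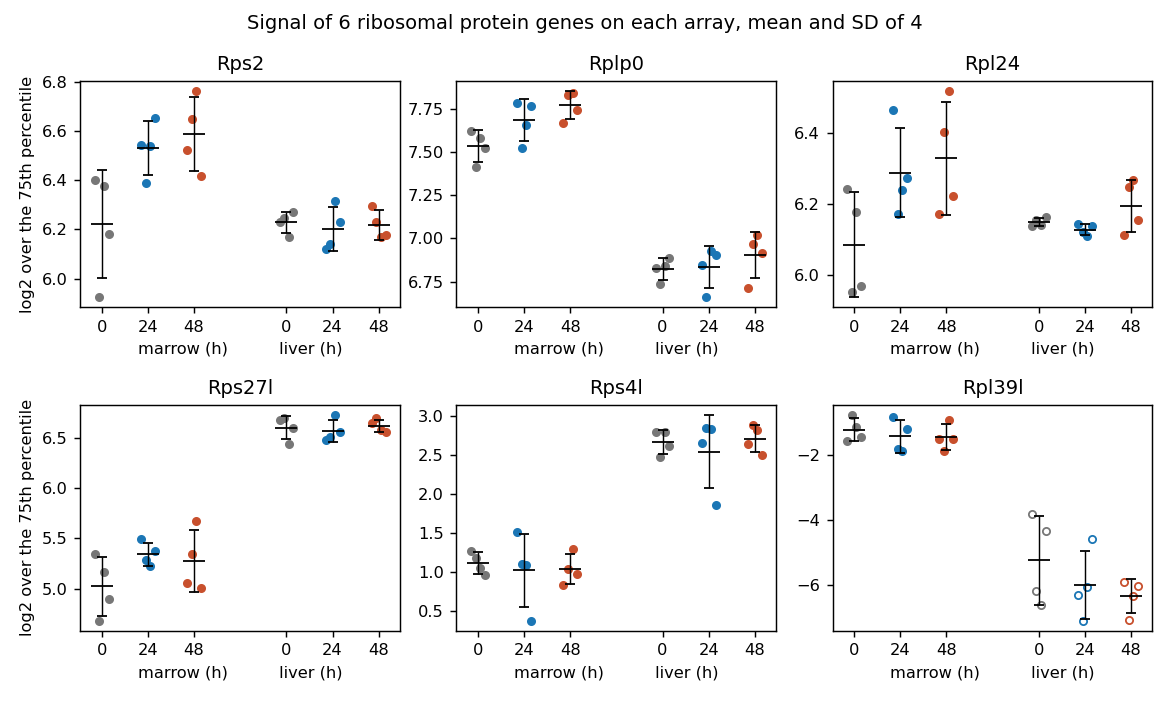
Signal (log2 over the array's 75th percentile, vertical) of 6 ribosomal protein genes on every array of marrow and liver at 0, 24 and 48 h; points are arrays, bars the mean and SD of 4, and open points a tissue where the gene was not tested. Rps2 and Rplp0 at 48 h lie above 0 h in marrow and overlap it in liver, Rps27l and Rps4l are lower in marrow at all times, and Rpl39l is near background in liver.

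The paralogs had wide errors, as did Rpl37, which is not one of them. Rps27l read 5.49, 5.28, 5.23 and 5.37 in marrow at 24 h, against 5.34, 4.69, 5.17 and 4.90 at 0 h, with overlap between the groups and a difference of 0.32 ± 0.17 (SE), or 0.34 ± 0.19 (SE) without replicate 2 at 24 h. Rps4l differed by -0.10 ± 0.20 (SE) in marrow at 24 h. Its replicate 4 at 24 h read 0.37 in marrow, where the other 3 read from 1.09 to 1.51, and 1.86 in liver, where the other 3 read from 2.65 to 2.85. The array of that number was thus the lowest in both tissues, on the same slide, and without it the 24 h difference was 0.12 in marrow and 0.10 in liver. Rpl39l differed by -0.21 ± 0.27 (SE) at 24 h and -0.23 ± 0.27 (SE) at 48 h, and its 24 h value was -0.08 ± 0.29 (SE) without replicate 2. On probes near background, Rpl3l differed by -0.41 ± 0.27 (SE) at 48 h and Rpl37 by 0.37 ± 0.21 (SE) at 24 h and 0.05 ± 0.21 (SE) at 48 h. The Rpl37 value at 24 h was 0.54 ± 0.18 (SE; limma adjusted p = 0.255) without replicate 2.

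The 21 ribosomal protein genes of the list whose human counterparts are mutated in Diamond-Blackfan anaemia were all tested in both tissues, and 0 were called at any time, against 1.01% and 1.23% of all genes in marrow at 24 and 48 h and 0% in liver. In marrow their median difference was 0.06 at 24 h and 0.12 at 48 h, next to 0.07 and 0.13 for all members. The 24 h medians without replicate 2 were 0.11 for the list and 0.12 for all members. Rps19, the counterpart of the most often mutated gene, differed by 0.03 ± 0.11 (SE) and 0.10 ± 0.11 (SE). Rpl5 differed by 0.05 and 0.17 and Rpl11 by 0.20 and 0.18, each with an SE of 0.11 to 0.14; both proteins bind MDM2 when ribosome assembly fails. Without replicate 2 the 24 h values of Rps19, Rpl5 and Rpl11 were 0.08, 0.12 and 0.24. Of 11 tested p53 targets, 0 were called in marrow, against the same shares of all genes, and Cdkn1a differed by -0.45 ± 0.20 (SE) at 24 h, -0.33 ± 0.20 (SE) without replicate 2, and by -0.40 ± 0.20 (SE) at 48 h. Against liver, 19 of the 21 anaemia genes were called higher in unbled marrow, as were 63 of 77 members and 37.0% of all genes.

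In liver the ribosomal protein genes differed little between the times. No gene of any kind was called in liver at either time (0% of 19649), with 10.9% of all genes at an unadjusted p under 0.05 at 24 h and 6.44% at 48 h, against 0 of 77 members at both. Between 24 and 48 h there were 0 members as well, against 7.63%. The 24 h arrays lay wholly below 0 h for 1 member (3.23% of all genes) and wholly above for 0 (2.30%), and at 48 h 2 members, Rpl17 (0.07) among them, lay wholly above (1.77% of all genes) and 0 below (2.44%). The median member difference was -0.01 at 24 h with 31 of 77 positive and 0.01 at 48 h with 51 of 77 positive, and the members' medians on the 12 arrays ran from -0.07 to 0.07. The differences ranged from -0.13 to 0.11 at 24 h and from -0.10 to 0.12 at 48 h. Members were measured more tightly than most genes here, with a median SE of 0.06 against 0.12 over all genes. The balance of signs at 24 h depended on the scaling: 59 of 77 were positive after quantile normalization, with a median of 0.03, and 60 of 78 in the authors' values, with a median of 0.04. Quantile normalization raised the median at 48 h to 0.07 with 70 of 77 positive, still with 0 called.

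The members at the ends of that range had bright probes, apart from Rps4l (-0.13 at 24 h). Rpl13a, known as part of the interferon-linked GAIT complex, read 6.59, 6.39, 6.38 and 6.36 at 0 h and 6.62, 6.52, 6.62 and 6.41 at 24 h, a difference of 0.11 ± 0.08 (SE) with overlap. Rpl41, the smallest ribosomal protein, differed by 0.10 ± 0.09 (SE) and Rpl3, at the peptidyl transferase centre, by 0.09. At 48 h Rps14 differed by 0.12 ± 0.07 (SE), Rps6, the substrate of S6 kinase, by 0.11 and Rps27 by 0.10. Rpl7a was lowest at 48 h at -0.10 ± 0.07 (SE), but its sign turned in the authors' values (0.08) and with another background correction (0.06). Rpl4, Rpl32 and Rpsa had the other largest negative values, none beyond -0.13.

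The tissues were then compared directly. Marrow and liver were read on separate arrays, and whether they share mice is not given. The test took the arrays as unpaired. The difference of the tissues' changes was called for 0 of 77 members at 24 h (0.499% of all genes) and 0 of 77 at 48 h (0.789%). An unadjusted p under 0.05 was reached by 2 of 77 members at 24 h, Rps2 among them, and by 6 of 77 at 48 h, Rps2, Rpsa, Rpl7a, Rpl3 and Rpl29 among them, against 12.8% and 12.9% of all genes. The median difference of the changes was 0.08 and 0.12, and -0.02 and -3.77e-04 under quantile normalization. Single marrow arrays moved it. At 24 h it was 0.01 without replicate 2 at 0 h, 0.15 without replicate 1 at 0 h, 0.04 without replicate 1 at 24 h and 0.13 without replicate 2 at 24 h. At 48 h it was 0.04 and 0.19 without replicates 2 and 1 at 0 h, and 0.07 without replicate 3 at 48 h.

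Some members were read by several probes on the same arrays. In marrow 172 member probes passed the filter, and 0 were called when every probe was tested. At 48 h 166 of the 172 were positive, and the probes of a gene share any shift of their arrays. Agreement in sign was therefore largely given beforehand and is no separate evidence. Of 58 genes with more than 1 such probe, 56 had the same sign at 48 h on all of them. The exceptions were Rpl26, whose dimmest probe was above background on 11 of 12 arrays, and Rps24, a gene known for alternative last exons. Its 4 probes gave 0.09, 0.08, -0.08 and -0.14 at 48 h and the last of these spans chr14:25312695-25315015 of mm9. The 15 kept marrow probes with signals under the 75th percentile had a median of -0.03 at 24 h with 7 positive, against 0.09 for the 157 brighter probes with 145 positive. At 48 h their median was 0.15, against 0.16 for the brighter probes, and they included the highest value of any member probe at that time, 0.43 for a dim Rps12 probe (limma adjusted p = 0.146) whose bright counterpart gave 0.17. Of the 176 probes, 47 span more than 60 bases of the genome, 7 are placed on a chromosome other than the gene's own, among them both Rps27 probes and 3 of the Rps29 probes, and 1 has no position. Whether probes also read processed copies was not tested.

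Genes that build ribosomes were set beside the genes that make up ribosomes. Of 48 ribosome biogenesis genes, 1 rose in marrow at 24 h and 2 at 48 h, and 0 fell, while 1.01% and 1.23% of all genes were called in either direction. Their median difference was 0.15 at 24 h and 0.25 at 48 h, with 45 and 47 of 48 positive, and 0.19 at 24 h without replicate 2. At 48 h 32 of the 48 had an unadjusted p under 0.05, against 16.0% of all genes and 6 of the 80 ribosomal protein genes. Such counts also rest on the spread between arrays. In marrow the median SD within a time was 0.15 for ribosomal protein genes and 0.11 for biogenesis genes. Under quantile normalization the SDs were 0.06 and 0.10, and the count of ribosomal protein genes was again 6 of 80. The median difference of the biogenesis genes was positive under each alternative run, from 0.05 to 0.21 at 24 h and from 0.13 to 0.27 at 48 h, with the lowest under the 95th percentile, and was 0.23 at 48 h under quantile normalization. In liver 0 were called, with medians of 0.03 and -0.03. The list was put together with earlier results of these data known.

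Ddx21, an RNA helicase of the nucleolus, read 1.18, 1.11, 1.23 and 1.33 in marrow at 0 h and 1.74, 1.60, 1.73 and 1.69 at 24 h. It rose by 0.48 ± 0.09 (SE; limma adjusted p = 0.0267), and all later arrays were above all 0 h arrays. Gnl3, or nucleostemin, read 0.32, 0.30, 0.29 and 0.47 at 0 h and 0.76, 0.80, 0.91 and 0.81 at 48 h, a rise of 0.47 ± 0.09 (SE; limma adjusted p = 0.0334). Ncl, nucleolin, rose at 48 h by 0.36 ± 0.08 (SE; limma adjusted p = 0.0479). These calls sat near the threshold: over 25 alternatives Ddx21 was called in 14 at 24 h, Gnl3 in 12 and Ncl in 5 at 48 h, all with the same sign. Without replicate 2 at 24 h in marrow, Ddx21 kept its 24 h call (0.51 ± 0.09, SE; limma adjusted p = 0.0438).

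Translation factors were set beside them as well, in marrow, where 1.01% of all genes were called at 24 h and 1.23% at 48 h. Of 18 factors whose mRNAs share the TOP motif, Eef1d, a subunit of the elongation factor exchange complex, rose at 48 h, from 5.53 ± 0.08 (SD, n = 4) to 5.91 ± 0.09 (SD, n = 4), by 0.38 ± 0.08 (SE; limma adjusted p = 0.0411). Eef1d was called at 48 h in 7 of 25 alternatives, with limma adjusted p from 0.0206 to 0.178. The median of the 18 was 0.11 at 24 h and 0.15 at 48 h, and 0.04 and 0.06 under quantile normalization, close to the ribosomal protein genes. The median of 18 other initiation factors was 0.18 at 24 h, the highest of these lists, and 0.20 at 48 h, between ribosomal protein and biogenesis genes. The 24 h medians without replicate 2 were 0.14 for the factors of the TOP class and 0.21 for the others. Of the other initiation factors, Eif2s2 rose at 24 h by 0.57 ± 0.12 (SE; limma adjusted p = 0.0447), and Eif2s2, Eif2b1 and Eif4g1 at 48 h. Eif2s2 and Eif2b1 belong to the machinery that brings the initiator tRNA, and Eif4g1 is the scaffold of the cap complex. Without replicate 2 at 24 h the 24 h call of Eif2s2 was lost (0.61 ± 0.12, SE; limma adjusted p = 0.0657). In the order listed, the 48 h changes were 0.56, 0.43 and 0.32, with limma adjusted p of 0.0457, 0.0371 and 0.0398 and calls in 8, 9 and 6 of 25 alternatives.

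**Figure D5:**
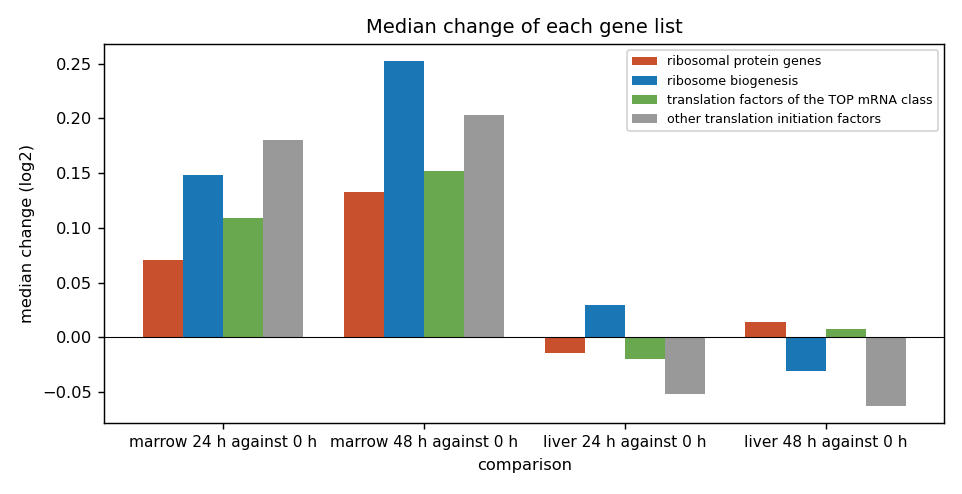
Median change after bleeding (log2, vertical, bars from 0) of the ribosomal protein genes and of 3 other gene lists in marrow and liver at 24 and 48 h against 0 h. In marrow at 48 h the medians were 0.13 for ribosomal protein genes, 0.25 for ribosome biogenesis, 0.15 for factors of the TOP class and 0.20 for other initiation factors, and in liver all were between -0.06 and 0.03.

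Of 11 regulators of ribosomal protein transcription and TOP mRNA translation, 0 were called in marrow. Over all genes the shares called were 1.01% at 24 h and 1.23% at 48 h, so a list this small would mostly hold no call. Myc read 0.41 ± 0.11 (SE) higher at 48 h (limma adjusted p = 0.103) and Larp1 0.14 ± 0.08 (SE). Among 6 tested paralogs outside the naming rule, 0 were called in marrow, against the same shares of all genes. Rpl7l1, a ribosome assembly factor, differed by 0.29 ± 0.08 (SE; limma adjusted p = 0.120) and Rpl22l1 by 0.25 ± 0.13 (SE) at 48 h.

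Few markers of marrow cell types passed the test at these times, when 1.01% and 1.23% of all genes were called. Of 14 erythroid markers 1 rose at 24 h and 2 at 48 h. Their median was 0.04 at 24 h with 8 of 14 positive and 0.40 at 48 h with 14 of 14 positive, and Tfrc, the transferrin receptor, rose at 48 h by 1.02 ± 0.13 (SE; limma adjusted p = 0.00325). Of 9 T and natural killer cell markers 2 fell at 24 h and 0 at 48 h, with medians of -0.25 and -0.33, and the 10 B cell markers had medians of -0.66 and -0.43 with 0 called. The 14 neutrophil markers had medians of -0.05 and -0.20, the 11 of monocytes and macrophages -0.21 and -0.30, the 6 of megakaryocytes -0.09 and 0.07, and the 8 tested hepatocyte markers 0.92 and -0.78, all with 0 called. Without replicate 2 at 24 h, the 24 h medians were -1.28 for the hepatocyte markers, -0.57 for B cells and 0.04 for neutrophils, and the counts of calls for erythroid and T and natural killer cell markers were again 1 and 2. In bulk tissue fewer cells of a type and less RNA per cell cannot be told apart. The part of cell makeup in the values of the ribosomal protein genes was not tested.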

How the data were processed

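Total RNA of liver and bone marrow was hybridised to 24 single-colour Agilent arrays, per the labels' protocols. The deposited scanner files hold intensity per spot, processed with Agilent Feature Extraction 10.10.1.1 per the file headers; the probe positions in them are on mm9. The authors' deposited table of processed values is on the log2 scale, and the submitters' processing notes name limma with no version; its normalization is not given in the sources used here. It was used as an alternative. Here, log2 processed intensity was taken over the 75th percentile of each array's 59305 non-control spots, outlier spots were dropped, spots of a probe were averaged, and the brightest kept probe stood for a gene. Differences were fitted with limma 3.58.1 (R 4.3.3), 12 arrays of a tissue together or 24 for tissue comparisons, with p-values adjusted by Benjamini-Hochberg over all genes at 0.05; the fit was tested on simulated data. The arrays of a group are 4 mice per the labels, so p-values set a difference of means against the spread between these samples. For each gene limma draws that spread towards the spread of all genes. Precision depends on how many arrays a group has and on the spread between them.

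The members, the gene lists, and the tests were chosen with earlier results of these data known. Genes named are members with the 3 largest differences each way per comparison, the brightest and dimmest, the stalk proteins, paralogs, the anaemia list, and up to 4 list genes with the smallest p; Rps24, Rpl26, Rps12, Rpl29, Rpl7, Rps16, Rps29, Rpl17, Rpl21, Rpl23 and Rps4x were named after their values were seen. Results on some single members are not reported here. Gene names are the scanner's for members; all 176 member probes kept that name when matched to RefSeq. Each result was recomputed with other scalings, background correction, filters, probe rules, blocks, models and with each array left out.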

Additional observations from a re-analysis of the deposited data

Results flagged for a closer look

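In liver at 0 h, replicate 1 stood apart from the other 3 arrays in the members' median shift (0.0434, against -0.0205 to -0.0119). The same array stood apart for Rpl13a, with a signal of 6.59 against 6.36 to 6.39, and, on its brightest liver probe, for Rps3, with 6.38 against 6.12 to 6.15. In liver at 48 h, replicate 2 stood apart for Rpl13a, with 6.70 against 6.44 to 6.47. These 4 cases met Dixon's 95% criterion for groups of 4, out of 141 groups examined over the members' median and 25 named genes. Chance alone flags about 1 group in 20. The shifts are under 0.3 on the log2 scale, and the cause was not tested.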

How the results depend on the processing

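In the 6 comparisons within a tissue and both comparisons of the tissues' changes, 0 members were called under every alternative run, each array left out included. In unbled marrow against unbled liver the 66 calls became 144 when every probe was tested, and 65 to 69 with an array left out. The median member difference there, 0.50, was 1.12 with quantile normalization, 0.33 with the 95th percentile, and 0.45 to 0.60 with an array left out. In liver the median at 24 h moved from -0.01 to 0.0448 in the authors' processed values, and at 48 h from 0.01 to 0.0685 with quantile normalization and 0.0621 in the authors' values.

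Signs turned for single members. Rps4l at 24 h was 0.12 in marrow and 0.10 in liver without replicate 4 of that group; with each array left out in turn it ran from -0.26 to 0.12 and from -0.23 to 0.10. Rps27 in marrow at 24 h was 2.95e-04 with median scaling, and ran from -0.14 to 0.00828 with an array left out, the highest without replicate 1 at 0 h. Rpl7a in liver was 0.00715 at 24 h and 0.0605 at 48 h with normexp, and 0.0362 and 0.0846 in the authors' values. Rpl10 in marrow against liver was 0.62 with quantile normalization. The cause was not tested.

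With the replicate block, the median in marrow was 0.07 at 24 h and 0.13 at 48 h, and 55 members were called between unbled marrow and liver. Within a tissue, residual correlations of same-numbered arrays ran from -0.25 to 0.17 in marrow and from -0.27 to 0.16 in liver. Such weak correlations cannot exclude a pairing between the times, which the main tests did not use. Whether a liver and a marrow of the same time and number share a mouse is not given. With a shared animal assumed for them (correlation of 0.121), 67 were called. The median SE of a member's change, 0.11 in marrow and 0.06 in liver, limits what could be detected, as do probes near background (Rpl37, Rpl3l, Rpl10l, and Rpl39l in liver).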
